A study of Homo sapiens with 12 samples.

Results

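The genes described here are the serum protein genes ALB (albumin) and AFP (alpha-fetoprotein) and 8 further genes, GPC3, H19, IGF2, IGF2BP1, IGF2BP3, LIN28B, DLK1 and PEG10, which are active in the fetal liver and are found again in many liver tumours. Their rows were matched by symbol alone, though the genes were chosen with earlier results of these data known. Of the 10 symbols, 9 were read, in 10 of 27249 rows with an Ensembl identifier. IGF2 has 2 rows. H19 was not analysed here. The RNA came from Huh7 and HepG2, established lines of human liver tumour cells that the labels call hepatocellular carcinoma cells of wild-type genotype. Both lines were sequenced as parental and as sorafenib-resistant cells, which makes 4 groups of 3 samples. Sorafenib is a kinase inhibitor used against liver cancer. According to the labels, resistant cells were the survivors of a first dose of 10 μmol sorafenib, after which rounds of exposure with rising doses went on for 8 months. The labels do not say whether the samples of a group came from separate cultures or separate selections, so p-values measure only the spread between these samples, which may be technical. They also do not say whether sorafenib was present when RNA was taken.

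ALB and AFP are neighbouring genes that arose from a common ancestor gene. AFP is the main serum protein of the fetal liver and is silenced around birth, while ALB stays on in adult hepatocytes. Oncofetal genes are those used by fetal tissue, switched off in the adult organ and switched on again in a tumour, and AFP is the classic serum marker of liver cancer. GPC3 is a heparan sulphate proteoglycan held at the cell surface by a lipid anchor, and DLK1 is a transmembrane protein of the Delta-Notch family that marks hepatoblasts. IGF2 is a fetal growth factor, and IGF2, DLK1 and PEG10 are imprinted genes that are read mainly from the paternal copy. PEG10 derives from a retrotransposon and encodes a Gag-like protein. LIN28B, IGF2BP1 and IGF2BP3 are RNA-binding proteins: LIN28B blocks the maturation of the let-7 microRNAs, and the IGF2BP proteins bind messenger RNAs, that of IGF2 among them, and affect their stability and translation.

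Values are FPKM, read numbers scaled for exon length and for library size, and can therefore be compared between genes of different length. The values rest on 12290136 to 19285975 reads per sample, recovered from the smallest step between the values, and a value of the 9 genes on 54 to 332084 reads. Reads were not tied to single molecules by identifiers, so their number speaks to counting error only. All 10 of 10 hepatocyte genes used as a check of the labelled cell type, such as APOA1, TTR and HNF4A, stood at 1 FPKM or more in all samples, with summed levels of 2499 to 2625 FPKM in parental and 2522 to 2927 in resistant Huh7 cells, and of 4918 to 5549 and 5313 to 5806 in HepG2. The 10 markers of immune, endothelial and fibroblast cells summed to 5.01 to 6.05 FPKM in parental and 5.72 to 6.79 in resistant Huh7 cells, and to 8.23 to 10.4 and 5.47 to 7.34 in HepG2, where 2 or 3 of them were at or under 3 reads in a whole group. In parental HepG2 cells 3 of these 10 stood at 1 FPKM or more in all samples, and in each other group 2 did. PDGFRB and PECAM1 reached 1 FPKM in every group. The part of the 10 markers in the results was not tested. In Huh7 the difference between resistant and parental cells rose with the GC content of a gene: the median log2 difference of the genes tested was -0.83 below 40% GC and 0.55 between 55% and 60%. In HepG2 the bin medians lay between 0.08 and 0.24. ALB, AFP, IGF2BP3 and LIN28B have transcripts of 38.1% to 41.3% GC, while IGF2 has one of 60.4%. Each Huh7 difference of the 9 genes between resistant and parental cells is therefore set beside the value that a fit without the GC trend gave, in which the smooth dependence of each library on GC content was subtracted. Such a subtraction can also take away a true difference.

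Ranks were taken among genes with an Ensembl identifier. In parental Huh7 cells AFP was the most abundant of these by FPKM, with rank 1 in 3 of 3 samples, at 5332 ± 872 FPKM (SD, n = 3). ALB stood at 952 ± 140 FPKM in the same cells and ranked between 3 and 8. In parental HepG2 cells the levels were 1394 ± 304 FPKM for AFP and 1615 ± 503 for ALB, so that neither stood clearly above the other. GPC3 and PEG10 were also abundant in parental Huh7 cells, at 473 ± 65.7 and 578 ± 14.9 FPKM. IGF2BP1 (89.5 ± 17.8 FPKM) and LIN28B (78.2 ± 9.57 FPKM) were intermediate there, and IGF2BP3 (11.3 ± 1.03 FPKM), IGF2 (6.46 ± 0.65 FPKM) and DLK1 (0.711 ± 0.071 FPKM) were low. The plot of FPKM by sample shows all of these values.

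**Figure D1:**
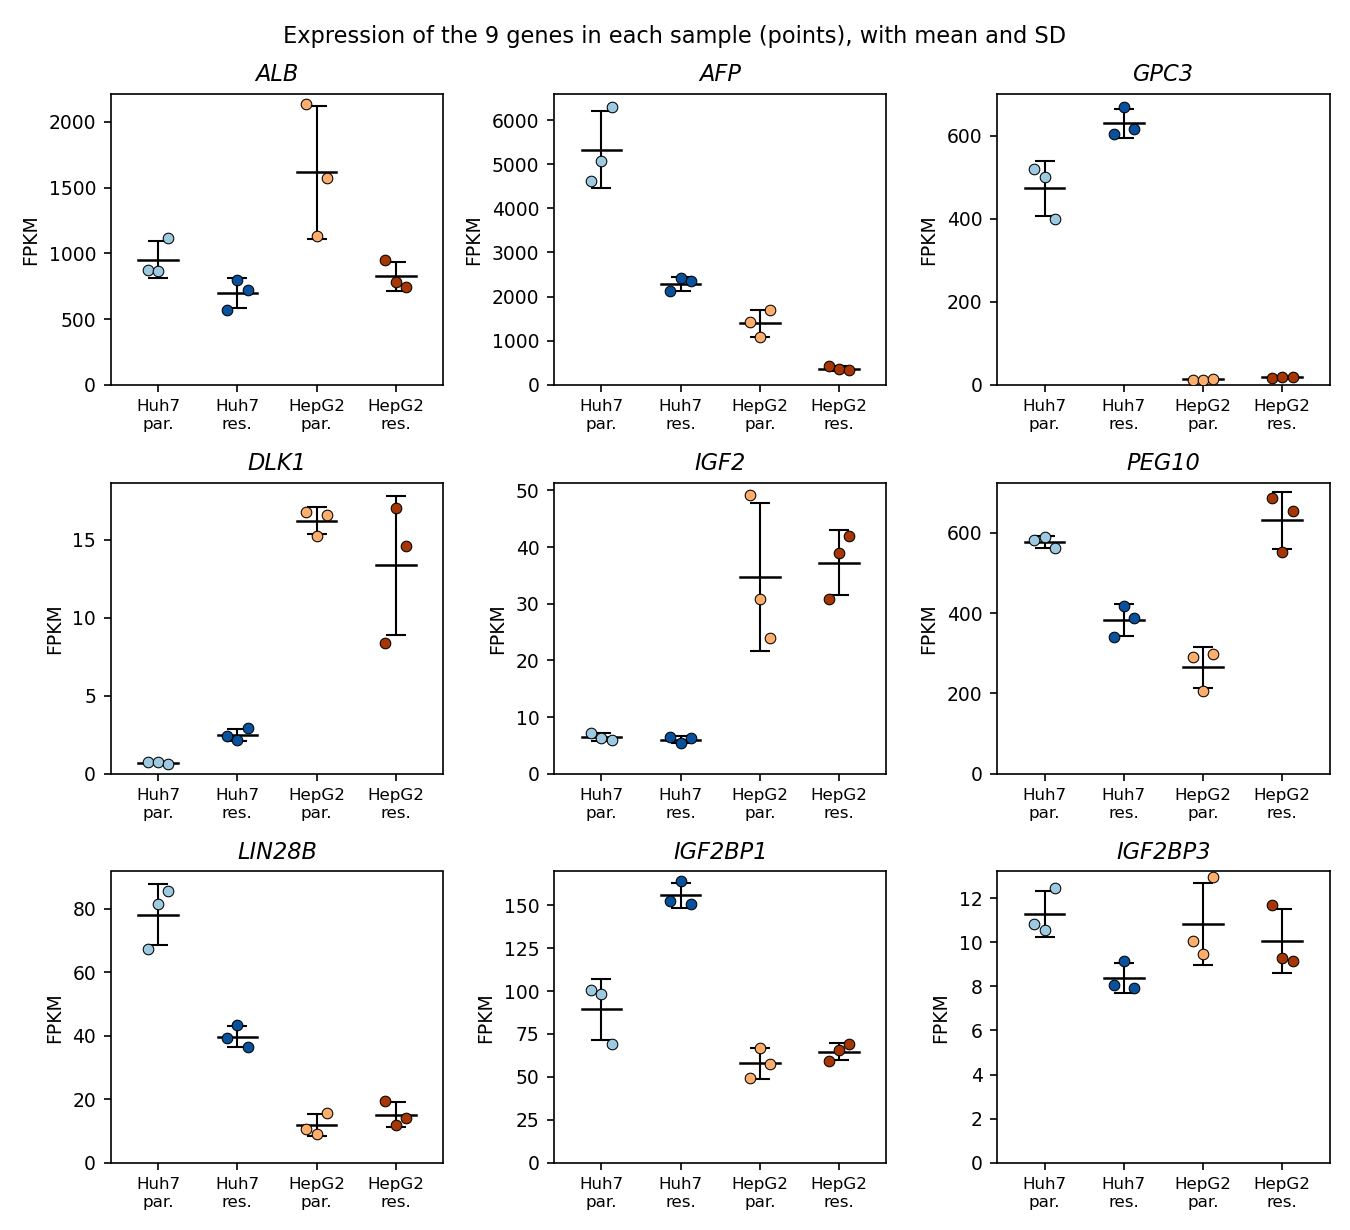
FPKM (linear axis from 0) of the 9 genes in each of the 12 samples, for parental (par.) and resistant (res.) Huh7 and HepG2 cells. Points are samples, and bars give the mean and the SD of 3 samples. AFP was lower in resistant cells of both lines without overlap, PEG10 was lower in resistant Huh7 and higher in resistant HepG2 cells, and GPC3 separates the lines.

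Whether the genes differ between sorafenib-resistant and parental cells was tested with limma, two-sided, on log2(FPKM + 1) over all genes that reached 1 FPKM in 3 or more samples of the comparison, with Benjamini-Hochberg adjustment. A fold change on this scale understates the change of low genes. All 9 genes passed this filter in both lines, DLK1 in Huh7 only through the resistant samples. In Huh7, at an adjusted p-value under 0.05, 3 of the 9 genes were higher and 5 lower, where 32.7% of the 12554 genes tested were higher and 37.4% lower. With a log2 difference beyond 1 added, the thresholds for differentially expressed genes in the methods, DLK1 was higher and AFP lower, against 8.59% and 14.0% of all genes. Only 1 gene passed both without parental replicate 3 or without resistant replicate 1 or 3, and 0 did without the GC trend. In that fit 7 had an adjusted p-value under 0.05 (limma), among them IGF2BP3 with the opposite sign and IGF2, which had not passed before. In HepG2, 2 of the 9 genes were higher and 2 lower at the adjusted p-value alone, against 11.6% and 8.43% of 11762 genes. With the log2 threshold, PEG10 was higher and AFP lower, against 3.29% and 2.98%. The groups did not overlap for 8 of the 9 genes in Huh7, where 74.5% of all genes did not overlap, and for 4 of the 9 in HepG2, where 40.4% did not. The median of all genes was -0.04 in Huh7 and 0.12 in HepG2.

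AFP was lower in resistant cells of both lines. AFP lies on the plus strand of chromosome 4 at 73431138 to 73456174 on GRCh38. In Huh7 it stood at 4623, 5066 and 6306 FPKM in the parental samples and at 2115, 2415 and 2343 in the resistant samples. In HepG2 it stood at 1413, 1081 and 1688 FPKM in the parental and at 423, 347 and 329 in the resistant samples. Every resistant sample was thus below every parental sample of its line, and resistant Huh7 cells still held more AFP than parental HepG2 cells. The mean was 2.33-fold lower in resistant Huh7 cells, with a log2 difference of -1.21 ± 0.18 (SE, adjusted p = 0.000534, limma). It was 3.81-fold lower in resistant HepG2 cells, with a log2 difference of -1.91 ± 0.20 (adjusted p = 0.000895, limma). In bulk RNA, fewer cells of a kind and less RNA per cell cannot be told apart. With the GC trend removed, the Huh7 difference was -0.47 (adjusted p = 0.0326, limma) and the HepG2 difference -2.02 (adjusted p = 0.000144). Without a filter on low values the Huh7 difference did not pass (adjusted p = 0.0744). The 1090 genes within 1 percentage point of the GC content of AFP had a median log2 difference of -0.77 in Huh7, and the 1016 such genes in HepG2 had one of 0.13.

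ALB was also lower in resistant cells of both lines, by less. ALB lies upstream of AFP on the same strand of chromosome 4, at 73397114 to 73421412. In Huh7 the parental samples had 875, 867 and 1114 FPKM and the resistant samples 571, 794 and 721. In HepG2 the parental samples had 2137, 1132 and 1576 FPKM and the resistant samples 951, 781 and 744. Parental and resistant ranges were separate in both lines, although the parental HepG2 samples spread over a wide range. The mean was 1.37-fold lower in resistant Huh7 cells (log2 difference -0.46 ± 0.18, SE, adjusted p = 0.0458, limma) and 1.96-fold lower in resistant HepG2 cells (-0.93 ± 0.24, adjusted p = 0.0299). After removal of the GC trend the Huh7 difference had the opposite sign and did not pass (0.07, adjusted p = 0.674, limma), while the HepG2 difference was -1.03 (adjusted p = 0.00861). The 1286 genes within 1 percentage point of the GC content of ALB had a median of -0.49 in Huh7. Leaving out single samples raised the adjusted p-value above 0.05 in 4 of 6 fits per line. These were, in Huh7, the fits without parental replicate 2 (adjusted p = 0.0584, limma) or 3 (0.0976) and without resistant replicate 1 (0.166) or 3 (0.0807). In HepG2 they were those without parental replicate 1 (0.0831, limma) or 3 (0.0601) and without resistant replicate 2 (0.0768) or 3 (0.112).

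The balance of the 2 genes shifted in each line away from AFP. The ratio of AFP to ALB was 5.29, 5.84 and 5.66 in parental Huh7 cells and 3.70, 3.04 and 3.25 in resistant ones. In HepG2 it was 0.661, 0.954 and 1.07 in parental cells and 0.445, 0.444 and 0.443 in resistant ones. All resistant samples were thus below all parental samples of their line, and the resistant HepG2 samples were nearly alike. The log2 ratio, taken with 1 FPKM added to each value, was lower by -0.75 in Huh7 and -0.98 in HepG2, each with p = 0.1 in an exact permutation test, two-sided, the smallest p-value that 3 samples against 3 allow. Over both lines, permuted within line, the mean difference was -0.87 with p = 0.005, the smallest that the 400 arrangements can give (exact permutation test). With the GC trend removed it was -0.54 in Huh7 and -0.99 in HepG2.

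**Figure D2:**
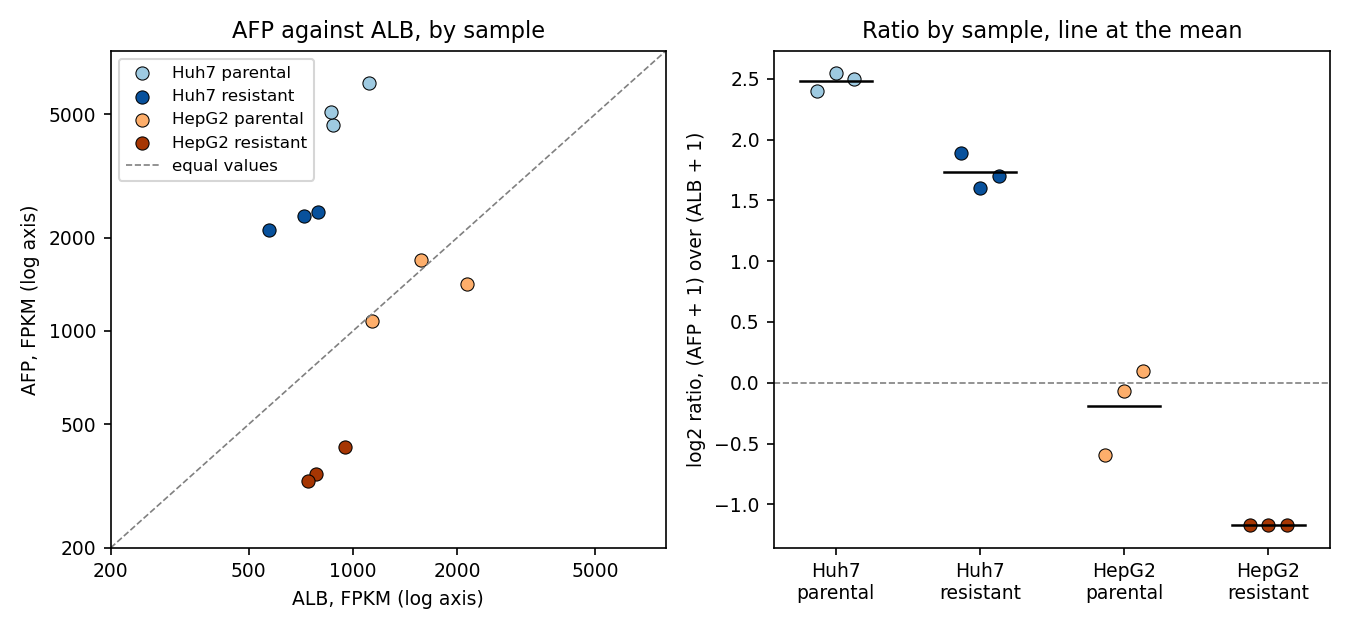
Left, AFP against ALB in FPKM on log axes for the 12 samples, with a dashed line of equal values. Right, log2 ratio of AFP to ALB by sample, with lines at the group means: all Huh7 samples lie above 0, and resistant samples lie below parental samples in both lines, by -0.75 and -0.98.

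Since ALB and AFP were both lower in resistant cells, the 150 bases before their RefSeq start sites are shown (GRCh38.p14, plus strand, 5′ to 3′). Capitals mark both motifs searched, each on either strand: TATAAA (the TATA box) and CCAAT (the box of that name). ALB is shown over chr4:73404137-73404286 and AFP over chr4:73436071-73436220.
ALB: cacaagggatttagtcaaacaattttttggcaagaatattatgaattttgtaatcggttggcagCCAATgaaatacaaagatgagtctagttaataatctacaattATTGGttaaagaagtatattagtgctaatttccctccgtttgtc
AFP: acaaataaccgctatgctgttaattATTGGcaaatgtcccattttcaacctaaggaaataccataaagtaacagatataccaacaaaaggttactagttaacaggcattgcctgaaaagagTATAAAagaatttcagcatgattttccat
The ALB stretch holds CCAAT at position -86 from the start and, on the minus strand, at -44. The AFP stretch holds TATAAA at -29 and CCAAT on the minus strand at -125. Of the same 150 bases of 35116 RefSeq promoters, 6.71% hold TATAAA and 23.5% CCAAT. The whole promoter windows of RefSeq, which run on past the start, have 33.3% GC in ALB and 33.0% in AFP, against a median of 58.7%. A match is a description of letters and not of binding.

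Among known regulators of these genes, ZBTB20, FOXA3 and CEBPB were each past both thresholds in a single line. ZBTB20, a repressor of AFP after birth, fell from 5.83 ± 1.08 to 1.76 ± 0.26 FPKM in Huh7 (log2 difference -1.30, adjusted p = 0.000119, limma). FOXA3, a pioneer factor of liver genes, rose there from 24.8 ± 5.69 to 62.4 ± 6.98 FPKM (1.32, adjusted p = 0.000225, limma). In the fit without the GC trend these differences were -0.60 and 0.79, both with adjusted p-values under 0.05 (0.0037 and 0.000518, limma). In HepG2, CEBPB, a factor of the acute-phase response, fell from 43.7 ± 7.50 to 18.7 ± 1.69 FPKM (log2 difference -1.17, adjusted p = 0.00255, limma), while in Huh7 it rose from 4.33 ± 0.75 to 6.42 ± 0.33 FPKM (0.49, adjusted p = 0.00921) and had 0.05 without the GC trend (adjusted p = 0.728). In the albumin gene family of 4 genes, AFM was not tested and GC, the vitamin D binding protein, was tested in Huh7 only, where it stood at 88.3 ± 4.88 FPKM in parental and 101 ± 18.6 in resistant cells (log2 difference 0.18, adjusted p = 0.3, limma). In the fit without the GC trend its difference was 0.63 (adjusted p = 0.00204).

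Across the 12 samples, the genes whose pattern was most like that of ALB were HS2ST1, KLHL23 and NARS, with mean absolute distances on the centred log2(FPKM + 1) scale of 0.14, 0.15 and 0.16 among 8873 genes. For AFP they were NFKBIZ, MCC and ABCC4, at 0.34, 0.46 and 0.47. Distances were not scaled by the spread of a gene. Group means ran from 366 to 5332 FPKM for AFP and from 695 to 1615 for ALB, so the distances of the 2 genes cannot be compared. NFKBIZ, the nearest to AFP, had group means of 23.0 and 11.2 FPKM in parental and resistant Huh7 cells and of 7.97 and 2.23 in HepG2.

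**Figure D3:**
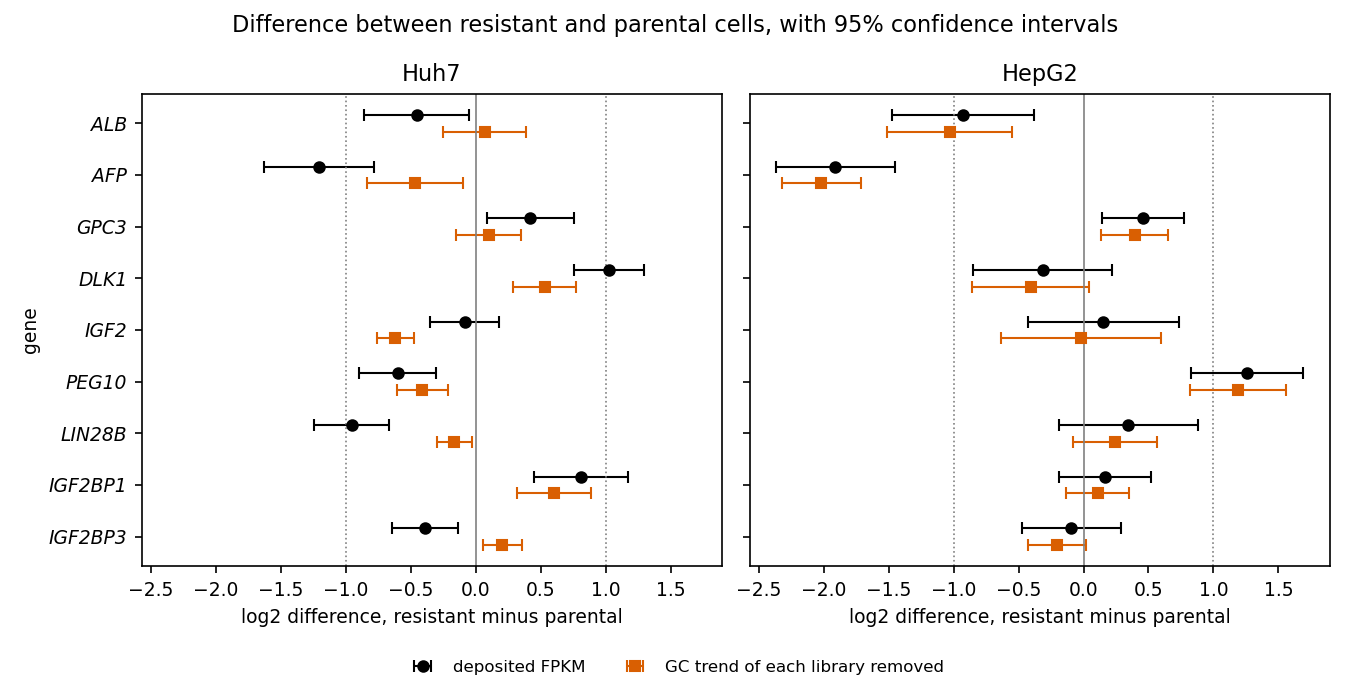
Log2 difference between resistant and parental cells of each line for the 9 genes, from limma on log2(FPKM + 1). Circles are the deposited values and squares those of the fit without the GC trend, with 95% confidence intervals. Dotted lines mark differences of 1. In Huh7 the values of ALB and IGF2BP3 change sign between circle and square, and in HepG2 circles and squares lie close together.

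**Figure D4:**
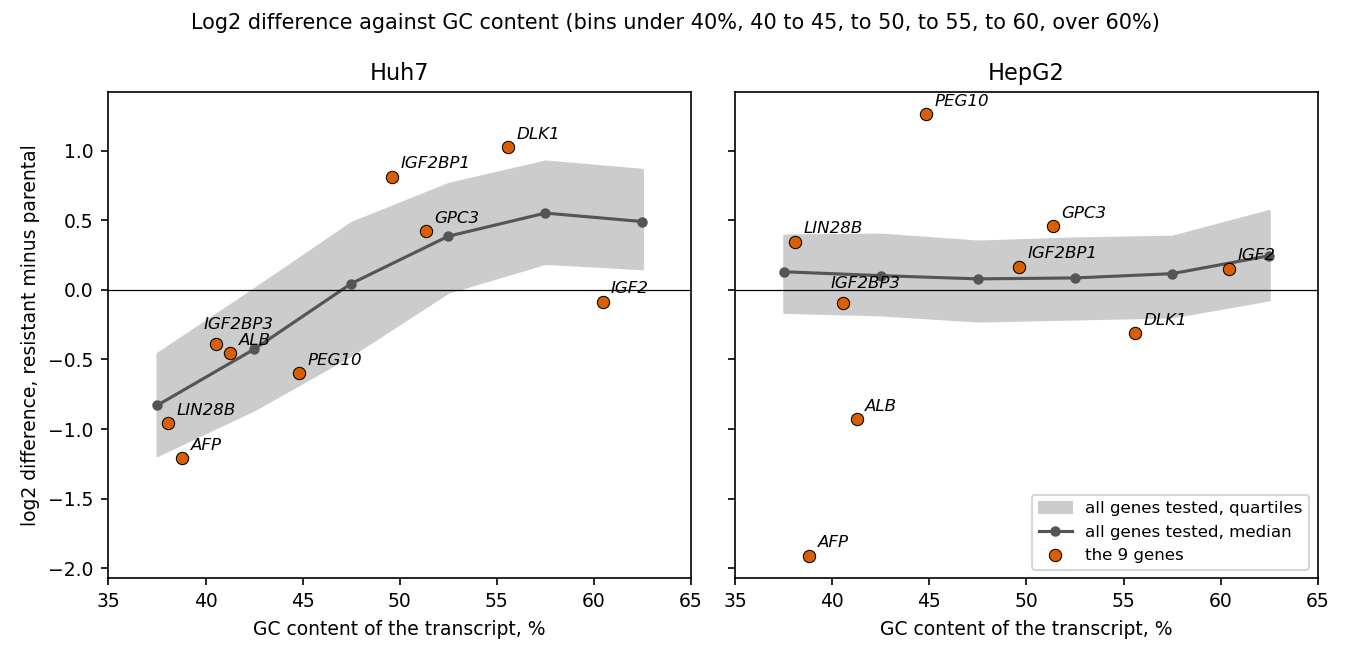
Log2 difference between resistant and parental cells against the GC content of the longest transcript. The grey line and band give the median and quartiles of all genes tested in 6 bins of GC content, with the outer bins drawn at 37.5% and 62.5%, and points are the 9 genes. The median rises from -0.83 to about 0.5 in Huh7 and stays between 0.08 and 0.24 in HepG2, where AFP and ALB lie far below the band and PEG10 above it.

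GPC3, the surface proteoglycan, had the largest difference between the lines among the 9 genes. It lies on the minus strand of chromosome X at 133535745 to 133985895. In Huh7 the parental samples had 521, 501 and 399 FPKM and the resistant samples 604, 669 and 617. In HepG2 they had 12.2, 12.7 and 14.8 FPKM and 17.3, 19.6 and 18.7 respectively. No Huh7 sample came near a HepG2 sample, and within each line the resistant samples were above all parental samples. The mean was 1.33-fold higher in resistant Huh7 cells (log2 difference 0.42 ± 0.15, SE, adjusted p = 0.0304, limma) and 1.40-fold higher in resistant HepG2 cells (0.46 ± 0.14, adjusted p = 0.0488). The Huh7 difference was 0.10 with the GC trend removed (adjusted p = 0.434, limma). Leaving out single samples raised the adjusted p-value above 0.05 in 5 of 6 fits per line, all but those without parental replicate 1 in Huh7 and without parental replicate 3 in HepG2. Over the 6 fits it ranged from 0.0217 to 0.0847 in Huh7 and from 0.0445 to 0.197 in HepG2. Among 10 glypican genes and partners, GPC6 fell in Huh7 from 30.6 ± 2.15 to 6.50 ± 0.18 FPKM (adjusted p = 4.68e-06, limma), with a log2 difference of -2.07 and of -1.58 without the GC trend. CD81, a surface protein that binds GPC3, stood at 0.69 ± 0.26 FPKM in parental and 2.64 ± 0.35 in resistant Huh7 cells. It entered the test through the resistant samples, so it had to differ, and its log2 difference of 1.11 was 0.65 without the GC trend. In HepG2, SULF2, a sulphatase that trims heparan sulphate, rose from 1.72 ± 0.30 to 17.6 ± 1.15 FPKM (adjusted p = 6.34e-05, limma), and FURIN, the protease that cleaves GPC3, fell from 23.1 ± 1.63 to 7.26 ± 1.74 FPKM (adjusted p = 0.0011). FURIN rose in Huh7, from 61.7 ± 13.7 to 100.04 ± 15.7 FPKM (adjusted p = 0.00844, limma), and did not pass there without the GC trend (0.18, adjusted p = 0.121). GPC1 stood at 0.61 ± 0.13 and 3.29 ± 1.29 FPKM in parental and resistant HepG2 cells and also entered the test through the resistant samples. Over this list, 2 of 4 tested genes were higher and 1 lower in Huh7, against 32.7% and 37.4% of all genes. In HepG2, 2 of 5 were higher and 1 lower, against 11.6% and 8.43%. Without the GC trend 1 was higher and 2 lower in Huh7, and 2 higher and 2 lower in HepG2. The share over all genes at the adjusted p-value alone is not at hand for that fit. Past both thresholds in it were 1 of 4 in Huh7, against 702 genes higher and 788 lower of 12554. In HepG2 they were 3 of 5, against 279 higher and 444 lower of 11762.

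DLK1, the hepatoblast marker, was at the lower limit of expression in Huh7. It lies on the plus strand of chromosome 14 at 100725705 to 100738224. In parental Huh7 cells it had 0.755, 0.749 and 0.629 FPKM, from 54 to 72 reads, and in resistant cells 2.42, 2.16 and 2.91. In HepG2 the parental samples had 16.8, 15.2 and 16.6 FPKM and the resistant samples 8.40, 17.1 and 14.6. In Huh7 the groups were separate at a low level, and in HepG2 they overlapped, with resistant replicate 1 far below the others. The Huh7 mean was 3.51-fold higher in resistant cells, with a log2 difference of 1.03 ± 0.12 (SE, adjusted p = 0.000137, limma), and 0.53 with the GC trend removed (adjusted p = 0.00342). Because the gene entered the test through its resistant samples alone, it had to differ, and it was not tested when a resistant Huh7 sample was left out. In HepG2 the log2 difference was -0.31 ± 0.23 (adjusted p = 0.365, limma, 95% confidence interval -0.85 to 0.22). Of the other Delta-Notch genes, 4 of 7 tested were higher and 2 lower in Huh7, against 32.7% and 37.4% of all genes. In HepG2, 3 of 5 were lower, against 8.43%. DLL4, at 0.36 ± 0.09 and 1.21 ± 0.16 FPKM in parental and resistant Huh7 cells, entered through the resistant samples, so it had to differ. NOTCH3, at 1.34 ± 0.38 and 0.44 ± 0.03 FPKM, entered through the parental samples, so it had to differ too. Without the GC trend 3 were higher and 3 lower in Huh7, and 4 lower in HepG2, with no share over all genes at hand for the adjusted p-value alone. Past both thresholds in that fit were 2 of 7 in Huh7, against 702 genes higher and 788 lower of 12554. In HepG2 they were 2 of 5, against 279 higher and 444 lower of 11762. JAG1, a Notch ligand, fell in both, from 58.7 ± 5.88 to 23.7 ± 1.72 FPKM in Huh7 and from 95.9 ± 1.94 to 37.5 ± 0.66 FPKM in HepG2 (adjusted p = 5.08e-05 and 0.000492, limma), and its log2 difference in Huh7 was -1.27, and -1.47 without the GC trend. HES1, a target of Notch, fell in HepG2 from 10.6 ± 1.30 to 3.20 ± 0.69 FPKM (adjusted p = 0.00135, limma) and rose in Huh7 from 5.53 ± 0.65 to 11.997 ± 1.10 FPKM (adjusted p = 0.000163).

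PEG10, the imprinted retrotransposon-derived gene, moved in opposite directions in the lines. It lies on the plus strand of chromosome 7 at 94656325 to 94669695, and 3.27% of its exon bases overlap the exons of SGCE on the other strand. The library kit does not mark strand, so reads of the overlap cannot be assigned. Parental Huh7 samples had 582, 590 and 561 FPKM and resistant samples 340, 418 and 388. In HepG2 the parental samples had 290, 205 and 299 FPKM and the resistant samples 686, 552 and 654. The groups were separate in both lines, with resistant samples below in Huh7 and above in HepG2. The mean was 1.51-fold lower in resistant Huh7 cells (log2 difference -0.60 ± 0.13, SE, adjusted p = 0.00321, limma) and 2.38-fold higher in resistant HepG2 cells (1.26 ± 0.19, adjusted p = 0.00358). The fit without the GC trend gave -0.41 (adjusted p = 0.00443) and 1.19 (adjusted p = 0.00197, limma).

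IGF2, the fetal growth factor, did not pass the test in either line. Its main row lies on the minus strand of chromosome 11 at 2129112 to 2149603. A second IGF2 row shares 73.7% of the exon bases of the first and held 0 to 2 reads per sample. It was not tested, and how reads of the shared exons were assigned is not given in the sources used here. In Huh7 the main row stood at 7.16, 6.34 and 5.89 FPKM in parental and 6.44, 5.37 and 6.28 in resistant samples. In HepG2 it stood at 49.2, 30.9 and 23.9 FPKM in parental and 30.9, 38.9 and 41.9 in resistant samples. The ranges overlapped in both lines. The log2 difference was -0.09 ± 0.12 in Huh7 (SE, adjusted p = 0.526, limma, 95% confidence interval -0.35 to 0.18) and 0.15 ± 0.25 in HepG2 (adjusted p = 0.697, -0.43 to 0.73). In the fit without the GC trend, IGF2 was lower in resistant Huh7 cells by a log2 difference of -0.62 (adjusted p = 0.000177, limma). The 610 genes within 1 percentage point of its GC content had a median of 0.57 in Huh7.

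Around IGF2, 4 of 9 tested genes of the ligand and receptor axis were higher and 4 lower in Huh7, against 32.7% and 37.4% of all genes. In HepG2, 2 of 5 were lower, against 8.43%. Without the GC trend 3 were higher and 4 lower in Huh7, and 5 lower in HepG2, with no share over all genes at hand for the adjusted p-value alone. Past both thresholds in that fit were 3 of 9 in Huh7, against 702 genes higher and 788 lower of 12554. In HepG2 it was 1 of 5, against 279 higher and 444 lower of 11762. IRS2, at 1.62 ± 0.29 and 0.51 ± 0.09 FPKM in parental and resistant Huh7 cells, entered the test through the parental samples, so it had to differ. The binding protein IGFBP2 stood at 0.55 ± 0.14 FPKM in parental and 10.6 ± 1.00 in resistant Huh7 cells, and IGFBP6 at 0.15 ± 0.07 and 2.27 ± 0.22. Both entered the test through the resistant samples, so they had to differ, with log2 differences of 2.90 and 1.502, and of 2.38 and 1.02 without the GC trend. INSR, the insulin receptor, which also binds IGF2, fell in HepG2 from 26.9 ± 3.58 to 12.8 ± 0.54 FPKM (adjusted p = 0.0028, limma). Of the other imprinted genes, 4 of 9 were higher and 3 lower in Huh7, against 32.7% and 37.4% of all genes. In HepG2, 3 of 11 were higher and 1 lower, against 11.6% and 8.43%. Without the GC trend 4 were higher and 2 lower in each line, with no share over all genes at hand for the adjusted p-value alone. Past both thresholds in that fit were 2 of 9 in Huh7 and 3 of 11 in HepG2, against the same counts over all genes. PHLDA2 and SLC22A18, which lie in the same imprinted region of chromosome 11 as IGF2, rose in Huh7 from 5.09 ± 0.99 to 33.2 ± 10.2 FPKM and from 5.12 ± 0.47 to 11.6 ± 1.63 FPKM (adjusted p = 4.36e-05 and 0.000183, limma). MEST, a paternally expressed gene, rose there from 9.73 ± 1.40 to 28.3 ± 2.77 FPKM (adjusted p = 5.14e-05, limma). In HepG2, PEG3 rose from 8.30 ± 2.48 to 19.2 ± 2.86 FPKM (adjusted p = 0.00918, limma). ZIM2, of the same imprinted region, stood at 0.76 ± 0.16 and 2.86 ± 0.22 FPKM in parental and resistant HepG2 cells and entered the test through the resistant samples. Without the GC trend SLC22A18 fell short of a log2 difference of 1 (0.53, adjusted p = 0.000621, limma), while MEST (1.49), PHLDA2 (1.97), PEG3 (1.06) and ZIM2 (1.07) did not.

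LIN28B and the IGF2BP genes hold pairing sites of let-7 in their 3′ untranslated regions. These sites are shown because LIN28B and IGF2BP1 hold the most and moved apart in Huh7. Without the GC trend the Huh7 log2 differences were -0.17 for LIN28B and 0.60 for IGF2BP1. The seed of let-7, bases 2 to 8, is in capitals in let-7a (RefSeq, GRCh38.p14, chr9:94175962-94175983, plus strand), and the matching CTACCTC is in capitals in the sites, read from GENCODE 29 transcripts with some bases on either side. On GRCh38 the LIN28B sites start at 105078817, 105081244, 105081426 and 105082865 of chromosome 6 and those of IGF2BP1 at 49051066, 49053703, 49054357 and 49055002 of chromosome 17, both on the plus strand. The IGF2BP3 site lies at chr7:23311788-23311812 on the minus strand.
let-7a-5p: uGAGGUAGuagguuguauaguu
LIN28B site 1: gttgcaaagtCTACCTCatgcaagt
LIN28B site 2: atgatagtaaCTACCTCtgagtttg
LIN28B site 3: cagcaaaaggCTACCTCatagttga
LIN28B site 4: atggtgttgaCTACCTCttgaatca
IGF2BP1 site 1: gcgaagtaaaCTACCTCaaggtatg
IGF2BP1 site 2: gtgctagtaaCTACCTCacagagcc
IGF2BP1 site 3: aatggattaaCTACCTCaatcctta
IGF2BP1 site 4: tttgttttatCTACCTCttagcaaa
IGF2BP3 site 1: ttttactcaaCTACCTCaggtattc
LIN28B thus has 4 sites in 4549 bases, IGF2BP1 has 4 in 6206 and IGF2BP3 has 1 in 2397, in the annotated transcript with the longest such region. The other 6 genes have none in theirs. Of 18881 protein-coding genes, 11.2% hold at least 1 such site, 1.40% at least 2 and 0.207% at least 3. The let-7 microRNAs themselves were not measured, and a match does not show that a site is used.

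LIN28B was lower in resistant Huh7 cells. It lies on the plus strand of chromosome 6 at 104936616 to 105083332. In Huh7 the parental samples had 67.4, 81.5 and 85.7 FPKM and the resistant samples 39.4, 43.3 and 36.6. In HepG2 the parental samples had 10.6, 9.07 and 15.6 FPKM and the resistant samples 19.5, 11.98 and 14.0. The Huh7 groups were separate and the HepG2 groups overlapped. The Huh7 mean was 1.97-fold lower in resistant cells (log2 difference -0.96 ± 0.13, SE, adjusted p = 0.000257, limma). The HepG2 difference was 0.35 ± 0.23 (adjusted p = 0.321, 95% confidence interval -0.19 to 0.88). In the fit without the GC trend the Huh7 difference was -0.17 (adjusted p = 0.0377, limma), and the 1000 genes within 1 percentage point of the GC content of LIN28B had a median of -0.79 in Huh7. LIN28B is the member of lowest GC content, at 38.1%.

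IGF2BP1 was higher in resistant Huh7 cells. It lies on the plus strand of chromosome 17 at 48997412 to 49055650. In Huh7 the parental samples had 101, 98.5 and 69.0 FPKM and the resistant samples 153, 164 and 150.4. In HepG2 the parental samples had 49.3, 66.9 and 57.2 FPKM and the resistant samples 59.3, 65.6 and 68.9. The Huh7 groups were far apart and the HepG2 groups overlapped. The Huh7 mean was 1.74-fold higher in resistant cells (log2 difference 0.81 ± 0.16, SE, adjusted p = 0.00184, limma), and the difference was 0.60 with the GC trend removed (adjusted p = 0.00403). In HepG2 it was 0.17 ± 0.15 (adjusted p = 0.471, limma, 95% confidence interval -0.19 to 0.52).

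IGF2BP3 differed little. It lies on the minus strand of chromosome 7 at 23310209 to 23470467, and 17.9% of its exon bases overlap the exons of MALSU1 on the other strand, which reads without strand cannot tell apart. Parental Huh7 samples had 10.8, 10.6 and 12.5 FPKM and the resistant samples 8.07, 9.16 and 7.90. In HepG2 the parental samples had 10.1, 9.45 and 12.9 FPKM and the resistant samples 11.7, 9.29 and 9.17. The Huh7 groups were separate by little and the HepG2 groups overlapped. The Huh7 log2 difference was -0.39 ± 0.11 (SE, adjusted p = 0.0129, limma). It was above 0.05 without resistant replicate 3 (adjusted p = 0.0645) and had the opposite sign with the GC trend removed (0.21, adjusted p = 0.0257). The HepG2 difference was -0.09 ± 0.17 (adjusted p = 0.716, limma, 95% confidence interval -0.47 to 0.29).

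Among 18 tested genes of the LIN28 and let-7 pathway, 8 were higher and 7 lower in Huh7, against 32.7% and 37.4% of all genes, with a median log2 difference of 0.30 against -0.04 over all genes. In HepG2, 3 were lower, against 8.43%, with a median of 0.05 against 0.12. Without the GC trend 8 were higher and 5 lower in Huh7, and 2 higher and 4 lower in HepG2. The share over all genes at the adjusted p-value alone is not at hand for that fit. Past both thresholds in it were 2 of 18 in each line. Over all genes 702 were higher and 788 lower of 12554 in Huh7, and 279 and 444 of 11762 in HepG2. MYCN, a MYC family factor that acts with LIN28B in embryonal tumours, rose in Huh7 from 31.3 ± 6.04 to 140.0 ± 1.29 FPKM (adjusted p = 1.87e-05, limma). In HepG2 it stood at 13.4 ± 3.71 FPKM in parental and 0.60 ± 0.17 in resistant cells, and entered the test through the parental samples, so it had to differ. MYC, an oncogene that raises LIN28B, fell in HepG2 from 284 ± 21.5 to 89.3 ± 8.74 FPKM (adjusted p = 0.000424, limma) and rose in Huh7 from 33.5 ± 3.69 to 62.5 ± 9.64 FPKM (log2 difference 0.88, adjusted p = 0.000674, and 0.43 without the GC trend). CDC25A, a cell cycle phosphatase, rose in Huh7 from 18.3 ± 2.30 to 43.1 ± 1.21 FPKM, and ZCCHC6, which tails let-7 precursors, fell there from 7.75 ± 1.72 to 2.72 ± 0.29 FPKM (adjusted p = 6.34e-05 and 0.0002, limma). Without the GC trend CDC25A (0.86) and ZCCHC6 (-0.66) fell short of a log2 difference of 1, and MYCN in Huh7 did not (1.62).

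Other genes of hepatoblasts and the oncofetal liver moved in both directions. In Huh7, 7 of 12 tested passed as higher and 4 as lower, against 32.7% and 37.4% of all genes. Their median was 0.46 against -0.04 over all genes. Without the GC trend 8 were higher and 4 lower in Huh7, with no share over all genes at hand for the adjusted p-value alone. Past both thresholds in that fit were 6 of 12, against 702 genes higher and 788 lower of 12554. KRT19, a keratin of bile ducts and liver progenitors, rose from 7.18 ± 1.40 to 70.4 ± 13.6 FPKM, EPCAM, a surface protein of the same cells, from 6.14 ± 0.27 to 25.4 ± 1.84 FPKM, and MDK, a heparin-binding growth factor, from 60.8 ± 9.99 to 207 ± 17.5 FPKM (adjusted p = 7.81e-06, 6.64e-06 and 3.51e-05, limma). In the fit without the GC trend their log2 differences were 2.60, 1.87 and 1.25. The 4 lower genes, named after their values were seen, were the progenitor marker PROM1, which fell from 15.5 ± 0.47 to 4.29 ± 0.53 FPKM (log2 difference -1.65, adjusted p = 1.67e-05, limma, and -1.30 without the GC trend), and SOX9 (-0.57), SALL4 (-0.44) and CD24 (-0.41). In HepG2, 1 of 9 was higher and 3 lower, against 11.6% and 8.43%, with a median of -0.18 against 0.12, and AKR1B10, an aldo-keto reductase of liver tumours, fell from 42.0 ± 5.51 to 9.44 ± 1.93 FPKM (adjusted p = 0.000438, limma). In Huh7 it stood at 0.38 ± 0.04 FPKM in parental and 3.44 ± 0.48 in resistant cells (log2 difference 1.68, and 1.63 without the GC trend), and entered the test through the resistant samples.

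The lines were also compared with each other, within parental and within resistant cells, which draws on the same samples as the comparisons above. Between parental cells, 6 of the 9 genes passed both thresholds: AFP, GPC3, LIN28B and PEG10 were higher and IGF2 and DLK1 lower in Huh7, where 19.4% of 12796 genes tested were higher and 12.5% lower. GPC3 was 35.8-fold higher in parental Huh7 than in parental HepG2 cells (log2 difference 5.05, adjusted p = 2.2e-07, limma), LIN28B was 6.64-fold, AFP 3.83-fold and PEG10 2.18-fold higher. DLK1 was 22.8-fold and IGF2 5.36-fold higher in HepG2. DLK1 entered this test through the HepG2 samples alone, so it had to differ. It was not tested when a parental HepG2 sample was left out. Without the GC trend the log2 difference of AFP was 1.35 instead of 1.95 and that of LIN28B 2.02 instead of 2.66. PEG10 (1.14) fell short of a log2 difference of 1 without the GC trend (0.92), with median-ratio scaling (0.97) and without parental replicate 2 of HepG2 (0.97). ALB was 1.70-fold higher in HepG2 (adjusted p = 0.0405, limma) and IGF2BP1 1.55-fold higher in Huh7 (adjusted p = 0.0215), neither beyond a log2 difference of 1, and the ALB difference was -1.16 with the GC trend removed. The ALB call was lost without parental replicate 1 or 2 of Huh7 or 1 or 3 of HepG2 (adjusted p up to 0.116, limma), and that of IGF2BP1 without parental replicate 1 or 2 of Huh7 or 1 of HepG2 (up to 0.0818). The ALB call was also lost with a pseudocount of 0.1 and without the filter (adjusted p up to 0.180, limma), and that of IGF2BP1 with median-ratio scaling (0.0636). IGF2BP3 did not pass (log2 difference 0.06, adjusted p = 0.739, 95% confidence interval -0.29 to 0.41). In its case the sign depended on the scaling, as it was -0.10 with median-ratio scaling, and with the GC trend removed it was -0.43 (adjusted p = 0.00593, limma). Median-ratio scaling moved the median of all genes in this comparison from 0.19 to 0.05.

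Between resistant cells, AFP, GPC3, IGF2BP1 and LIN28B were higher and IGF2 and DLK1 lower in Huh7 by both thresholds, against 14.4% of 12550 genes higher and 14.4% lower. AFP was 6.25-fold and GPC3 34.0-fold higher in resistant Huh7 than in resistant HepG2 cells. PEG10, which had been 2.18-fold higher in parental Huh7 than in parental HepG2 cells, was 1.65-fold lower in resistant Huh7 than in resistant HepG2 cells (log2 difference -0.72, adjusted p = 0.00227, limma). ALB did not pass between resistant cells (log2 difference -0.25, adjusted p = 0.213, 95% confidence interval -0.64 to 0.14), and its ranges overlapped.

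By order of the group means, ALB ran from parental HepG2 through parental Huh7 and resistant HepG2 to resistant Huh7 cells, and only the first step had ranges that did not overlap. AFP ran from parental to resistant Huh7 and then from parental to resistant HepG2 cells, with separate ranges at each step. For PEG10, resistant HepG2 and parental Huh7 cells overlapped at the top, followed by resistant Huh7 and parental HepG2 cells.

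Whether the effect of resistance differed between the lines was tested with the interaction of line and resistance in all 12 samples. At an adjusted p-value under 0.05, 5 of the 9 genes differed, where 56.3% of 13800 genes tested did. The difference between the lines, Huh7 minus HepG2, was -1.86 for PEG10 (adjusted p = 5.82e-05, limma), 1.34 for DLK1 (0.00189), -1.30 for LIN28B (0.00261), 0.70 for AFP (0.0389) and 0.65 for IGF2BP1 (0.0259). Leaving out single samples ended the AFP call in 8 of 12 fits, with adjusted p-values up to 0.0915, and not without parental replicate 3 or resistant replicate 1 of Huh7 and without parental replicate 2 or resistant replicate 1 of HepG2. The IGF2BP1 call was lost without parental replicate 3 (adjusted p = 0.0501, limma) or resistant replicate 2 (0.0536) of Huh7 and without parental replicate 2 (0.0593) or resistant replicate 1 (0.058) of HepG2. With the GC trend removed the difference was 1.53 for AFP, -0.43 for LIN28B and 1.08 for ALB, which had not passed before (0.47, adjusted p = 0.223, against 0.00476, limma). GPC3 (-0.04), IGF2 (-0.24) and IGF2BP3 (-0.29) did not pass, with adjusted p-values of 0.865, 0.526 and 0.206. With the GC trend removed the IGF2BP3 difference had the opposite sign (0.38) and an adjusted p-value under 0.05 (limma).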

How the data were processed

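RNA of parental and sorafenib-resistant Huh7 and HepG2 cells was sequenced by the authors, with 3 samples per group, and groups and replicate numbers were taken from the labels. The labels name an RNeasy and the methods a TRIzol extraction. Libraries were made with the NEBNext Ultra RNA kit, and the submitters' processing notes name bcl2fastq and GRCh38. The aligner and the counting tool are not given in the sources used here. The authors deposited a table of decimals per sample, without a stated unit, which behave as FPKM (RPKM cannot be told apart) and were used without rescaling. With a step per sample, 96.3% to 96.5% of values up to 2000 reads fell within 0.05 of a whole read. Of 98711 rows, 71462 NONCODE rows were left out.

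Members and gene lists were chosen with earlier results of these data known. Tables were read with Python 3.11.15 and pandas 2.3.3, and limma 3.58.1 in R 4.3.3 was fitted with a trend on mean expression, on log2(FPKM + 1), for genes that reached 1 FPKM in 3 or more samples of a fit, with the design and thresholds of the methods. limma-voom on reads calculated back was an alternative. From each list, the 3 genes per line with the largest difference among those past both thresholds were named. Some items of the list of regulators, and counts over that list, are not reported here. Likeness was ranked over genes tested in all samples. Gene positions, exon lengths and GC content came from GENCODE release 29, and promoters and microRNAs from RefSeq (GRCh38.p14). In simulated data with 200 changed genes, 99% were recovered in Huh7 and 99% in HepG2. Of 12394 and 11786 genes, 1 and 4 others were called. The changed genes were well expressed and moved by more than a log2 difference of 1. The simulated spread was small and the same for all genes, with no GC trend. Recovery of smaller changes, of low genes and under a GC trend was therefore not tested. Replicate numbers are shared between groups, but nothing says that they pair, so samples were not paired. Deviations of same-numbered samples correlated at 0.08, 0.06 and -0.23 in Huh7 and 0.25, 0.44 and -0.01 in HepG2. Those of different-numbered samples ran from -0.33 to 0.28 in Huh7 and from -0.42 to 0.21 in HepG2. So few pairs do not settle whether samples were paired.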

Additional observations from a re-analysis of the deposited data

Results flagged for a closer look

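For 5 genes the effect of resistance differed between the lines by the interaction of line and resistance (limma, 12 samples, Benjamini-Hochberg adjustment). This was so for 56.3% of all 13800 genes tested, a share like that of the 9 genes. PEG10 fell in Huh7 and rose in HepG2, a difference of -1.86 on the log2 scale (adjusted p = 5.82e-05, limma). DLK1 was higher in resistant Huh7 cells, with -0.31 and no call in HepG2, a difference of 1.34 (adjusted p = 0.00189, limma). LIN28B was lower in resistant Huh7 cells, with 0.35 and no call in HepG2, a difference of -1.30 (adjusted p = 0.00261, limma). AFP was lower in both, by less in Huh7, a difference of 0.70 (adjusted p = 0.0389, limma). IGF2BP1 was higher in resistant Huh7 cells, with 0.17 and no call in HepG2, a difference of 0.65 (adjusted p = 0.0259, limma). No outlying sample was sought in these groups of 3.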

How the results depend on the processing

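Alternatives were upper-quartile and median-ratio scaling, a pseudocount of 0.1, no filter on low values, limma without the trend, limma-voom on reads calculated back, all 12 samples in a fit, removal of the GC trend and the leaving out of each sample. In Huh7, 2 of the 9 genes passed both thresholds, and 1 did with no filter, 1 to 3 with a sample left out, and 0 with the GC trend removed, where 7 had an adjusted p-value under 0.05 (limma). Together with a replicate block it was also 0, and 5 had one, without LIN28B (0.0735) and IGF2BP3 (0.0516). The AFP to ALB log2 ratio of Huh7 was -0.54 without the GC trend.

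Signs turned without the GC trend for ALB (0.068) and IGF2BP3 (0.21) in Huh7, for IGF2 in HepG2 (-0.018), and for IGF2BP3 between parental (-0.43) and resistant cells (0.015) and in the interaction (0.38), each with the same value with a replicate block. IGF2BP3 between parental cells also turned with upper-quartile (-0.017) and median-ratio scaling (-0.10), and ranged from -0.021 to 0.19 with a sample left out. The interaction of GPC3, -0.04, turned with upper-quartile (0.038) and median-ratio scaling (0.14), and ranged from -0.16 to 0.035 with a sample left out. With a sample left out, IGF2BP3 ranged from -0.20 to 0.032 and IGF2 from -0.076 to 0.43 in HepG2, both turning without parental replicate 3. Beyond the GC trend, the cause of these turns was not tested. ALB in Huh7 lost its call with median-ratio scaling (adjusted p = 0.0552, limma) and in the fit of all 12 samples (0.0938), and in both lines without the filter (0.188 in Huh7, 0.180 in HepG2). GPC3 in HepG2 lost it with 6 of the settings, with adjusted p-values up to 0.0985 (limma), and the AFP interaction without the filter (0.151). The LIN28B interaction lost its call with the GC trend removed together with a replicate block (adjusted p = 0.0569, limma).

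Same-numbered samples were not shown to be paired. With a replicate block the members past both thresholds stayed at 2 in each line. A block cannot move a mean difference in a balanced design, so the ratio is -0.75 in Huh7 and -0.98 in HepG2 by construction. H19 values, the H19 to IGF2 ratio and the likeness to H19 were not run. At 54 to 72 reads, DLK1 in parental Huh7 cells was the least precisely counted value.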
